A study of Homo sapiens with 30 samples.

Results

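The samples described here are BEAS-2B cells collected 6h50 min after whole birch pollen had been dispersed over them, and the mock cells of the same time. BEAS-2B is a human bronchial epithelial line that was immortalized with viral genes, so every culture comes from 1 line. The comparison holds 6 of the 30 arrays of the series, 3 labelled pollen and 3 labelled air. Both groups carry the 10 mg label, grew in BEGM medium on Transwell inserts and were at the air-liquid interface for 24 h before the exposure. Pollen was blown into a sedimentation chamber with pressured air, and per the study's methods the mock cells went through the same handling behind a mesh that holds pollen back. Each array holds the RNA of a separate culture, and the methods describe repetitions on different days. The question of the comparison is which transcripts differ between cells that received pollen and cells that received the handling alone. The members are all probes that could be measured after 1 locally dim area of the arrays was left out, 30461 probes of 23304 genes.

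The airway epithelium meets pollen first. Its cells sense particles, proteases and lipids through receptors at the surface and pass the signal to transcription factors such as NF-kB, AP-1 and the STAT proteins. Immediate early genes such as FOS and EGR1 are the first transcripts of such a response, followed by cytokines, chemokines and adhesion molecules that call immune cells. IL33, TSLP and IL25 are alarmins that epithelial cells release towards type 2 immunity, the arm of immunity behind pollen allergy.

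RNA was labelled with Cy3 and hybridised to one-colour Agilent arrays, where it gives each spot a brightness. Levels are given here as log2 brightness minus the 75th percentile of the array, so that 0 stands for a bright probe and not for an absent one. A difference is pollen minus air on this scale. Unscaled, the percentile lay between 587 and 1151 on the 6 arrays, 44.6% to 49.7% of the probes were well above background, and 0 spots were saturated. All 6 arrays lay on 1 slide that held no other time. The 3 pollen arrays lay in odd and the 3 air arrays in even columns of that slide, so position and treatment cannot be told apart. Of 10 markers listed as epithelial, all were above background on every array, among them KRT8, KRT18, KRT19, EPCAM and CDH1. The list also holds VIM (6.01 in air, 6.04 in pollen) and CDH2 (0.63 and 0.66), which are not specific to epithelium. Of 3 markers of ciliated cells, none was above background on any array, and of 3 secretory markers MUC5B was not above background on any, MUC5AC was on 4 and SCGB1A1 on 5 of the 6. The leukocyte marker CD3E was not above background on any array either, while PTPRC stood at -5.45 in air and -5.63 in pollen. The endothelial marker PECAM1 was not above background on any array. The endothelial markers VWF and CDH5 and the fibroblast markers PDGFRB and DCN were above background on all 6 arrays, with means from -5.82 to -2.79. CD14, a co-receptor for bacterial lipopolysaccharide that is used as a monocyte marker, stood at -0.93 in air and -0.30 in pollen. Its difference of 0.63 (SE 0.17) had an adjusted p of 0.425, and its part in other results was not tested.

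In the middle of the array, from row 146 to 247 and column 61 to 102 of a grid of 384 rows and 164 columns, air replicates 1 and 2 were locally dim. The spots of this area kept 61.2% of their brightness on air replicate 1 and 73.8% on air replicate 2, against the same spots on the arrays of the other times. On air replicate 3 and the pollen arrays they kept 94.4% to 97.2%. The lowest local median was -1.71 on air replicate 1 and -1.08 on air replicate 2 on the log2 scale. The dimness was thus present on 2 of 3 air arrays and on no pollen array. A total of 3005 of 60901 spots lie there, and 2857 of 58201 probes have no spot elsewhere. Among 32088 probes that could otherwise be tested, 1627 (5.07%) were left out for this reason.

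**Figure D1:**
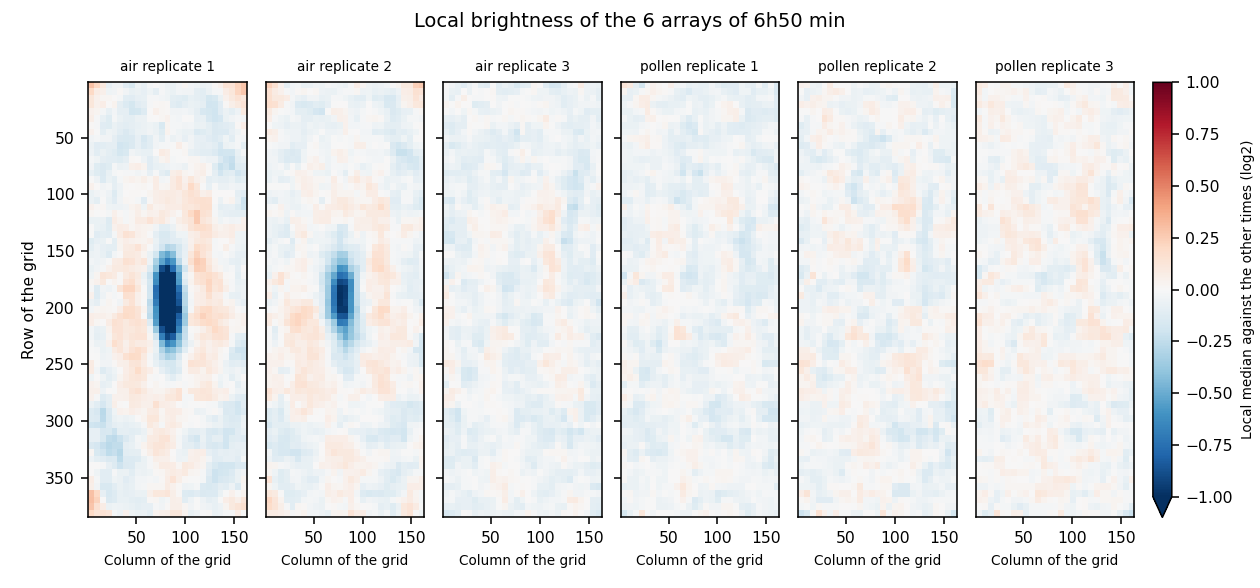
Local median of each spot's log2 difference from the arrays of the other times, over windows of 15 rows and 15 columns, on the 6 arrays of 6h50 min. Row and column are positions in the grid of spots. A dark patch stands in the middle of air replicates 1 and 2, and no such patch is seen on air replicate 3 or the pollen arrays.

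With the area kept, 62 probes passed the call rule of the study, an adjusted p of limma under 0.05 and at least 1.1-fold, and 52 of them lay in the area. Of these 62, 61 were higher in pollen. The median difference was 0.33 in the area and -0.01 outside it. When the local median of each array was subtracted from its spots, 7 probes passed, 1 of them in the area, whose median difference became 0.05.

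The area holds the probes of several genes that the study's text names for this time. Of 16 such genes, 8 could be tested, and 8 had no tested probe outside the area: ACTN4, PGF, CYB5B, SERP1, SLC25A4, TGFB1I1, MAP3K3 and MTOR. FOXP1 and SLC2A6 each have 1 probe in the area and were tested on probes outside it. ACTN4, an actin crosslinker, stood at -1.36, -0.42 and 0.99 on air replicates 1 to 3 and at 0.90, 0.63 and 0.66 on the pollen replicates. TGFB1I1, a focal adhesion protein, stood at 0.97, 1.88 and 2.77 in air and at 2.76, 2.85 and 2.92 in pollen. SLC25A4, which exchanges ADP and ATP across the inner mitochondrial membrane, stood at 1.00, 1.60 and 2.24 in air and at 2.39, 2.44 and 2.31 in pollen. In all 3 genes the low values belonged to the arrays with the dim patch, and air replicate 3 stood near the pollen arrays. MTOR, a kinase that ties growth to nutrients, stood at -0.14, -0.09 and 0.47 in air and at 0.50, 0.45 and 0.43 in pollen. PGF, a placental growth factor of the VEGF family, stood at -0.98, -0.68 and 0.06 in air and at 0.06, 0.33 and 0.28 in pollen. Over the 10 probes, air replicate 3 exceeded the mean of air replicates 1 and 2 by 0.58 to 1.88, and in 6 of them it fell within the range of the pollen arrays. The mean of pollen differed from air replicate 3 by -0.26 to 0.17. The difference from all 3 air arrays ran from 0.36 to 0.99, and with the local median subtracted from 0.05 to 0.26. These probes therefore give no value for pollen against mock here.

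**Figure D2:**
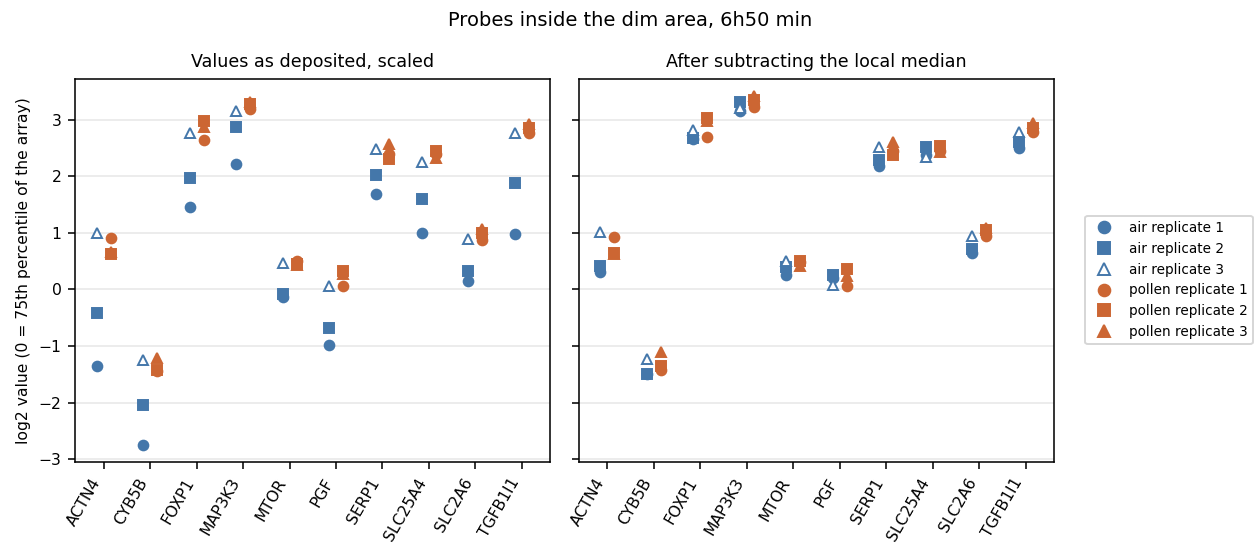
Scaled log2 level on each array for the 10 probes in the area of genes that the study names for 6h50 min, as measured and after the local median of the array was subtracted. Air replicates 1 and 2 lie under the pollen arrays as measured in all 10 probes, while air replicate 3 lies close to them.

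Outside the area 2 of 30461 probes passed the call rule, both higher in pollen (0.00657% of the probes tested), and 0 were lower (0%). This count depended on the processing. With the replicate number as a block it was 72 (66 higher, 6 lower). The study describes a mock control in the same run as the exposed cells, but no label says that the replicate number marks a run. At an unadjusted p of limma under 0.05, 1213 probes were higher (3.98%) and 586 lower (1.92%). This split depended on the scaling, with 980 higher and 777 lower under quantile normalization and 1333 higher and 2392 lower in the authors' table of log2 values. With 1 probe per gene, 874 genes were higher at that p (3.75%) and 464 lower (1.99%). The 3 pollen values lay above all 3 air values in 1572 genes (6.75%) and below them in 1061 genes (4.55%). The median difference over all genes was 0.01, and 52.4% of the genes lay above 0. The counts of list members at an unadjusted p are to be read against these shares of 3.75% and 1.99%. The median SD of a probe over the 3 arrays was 0.150 in air and 0.135 in pollen.

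ANGPTL4 had the smallest p. It is a secreted inhibitor of lipoprotein lipase, a target of the PPAR receptors, and is also induced by hypoxia and glucocorticoids. Its probe lies at chr19:8439197-8439256 (hg19). It stood at -0.49, -0.27 and -0.31 in air and at 1.34, 1.78 and 1.82 in pollen. The groups were far apart, with a gap between them wider than the spread within either. ANGPTL4 rose 4.02-fold (difference 2.01, SE 0.32, adjusted p of limma 0.0319). The call rested on all 6 arrays, since the adjusted p lay between 0.0574 and 0.189 when any 1 of them was left out, with a difference of 1.92 to 2.16.

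The other probe that passed belongs to LOC105369352, an uncharacterized locus, and lies on the minus strand at chr11:66029200-66029259 (hg19). Its sequence is shown because the locus has no known product and the probe alone defines what was measured.
LOC105369352: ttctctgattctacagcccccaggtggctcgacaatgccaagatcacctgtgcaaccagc
It stood at -7.73, -7.25 and -7.43 in air, where it was above background on 0 of 3 arrays, and at -5.90, -6.46 and -5.72 in pollen, where it was above background on 2 of 3. Set against the lowest signal above background it rose 1.49-fold (measured difference 1.44, SE 0.24, adjusted p of limma 0.0378). This fold is no lower bound, since only 2 of 3 pollen arrays were above background. Another probe of the same locus differed by 0.62. The signal of this transcript was thus at the edge of detection, and the call was lost when any 1 array other than pollen replicate 2 was left out, with adjusted p from 0.0574 to 0.199. With normexp background correction the difference was 0.20 and in the authors' table of log2 values 0.37, neither past the threshold.

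Several probes came close to the threshold. TBC1D2, a GTPase-activating protein for RAB7 that acts on cadherin turnover, stood at 3.27, 3.30 and 3.13 in air and at 3.70, 3.88 and 3.76 in pollen. Its difference was 0.55 (SE 0.10, adjusted p of limma 0.0599). ESRP2, an epithelial splicing regulator, stood at 1.04, 1.04 and 0.97 in air and at 1.47, 1.53 and 1.52 in pollen, a difference of 0.49 (SE 0.10, adjusted p 0.0841). In both genes the groups lay apart by more than the spread within either. A probe of CCAT1, a long noncoding RNA first described in colon cancer, differed by 1.17 (adjusted p of limma 0.0622), and the brighter probe of CCAT1 by 0.85 (adjusted p 0.316). A probe of B4GALT1-AS1, an antisense RNA, was above background on 3 of 3 air arrays but on 0 of 3 with pollen, where it was at least 1.51-fold lower (adjusted p 0.0597). The brighter probe of B4GALT1-AS1 differed by -0.24 and its groups overlapped. None of these passed the test.

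FBXL5 and TFRC both belong to iron handling. FBXL5, the iron-sensing subunit of a ubiquitin ligase that degrades the iron regulatory proteins, stood at 1.97, 2.05 and 1.90 in air and at 2.61, 2.57 and 2.53 in pollen. Its difference was 0.60 (SE 0.11, adjusted p of limma 0.0672). TFRC, the transferrin receptor that brings iron into the cell, stood at 0.01, 0.31 and 0.39 in air and at -0.54, -0.63 and -0.42 in pollen. Its difference was -0.77 (SE 0.18, adjusted p 0.268), with all pollen arrays below all air arrays. At 2h25 min TFRC differed by -0.89 and at 24 h by -0.04, while FBXL5 differed by 0.25 and 0.13. The ferritin genes FTH1 and FTL differed by 0.04 and 0.17 at 6h50 min, and IREB2, an iron regulatory protein, by -0.02. Of the 16 iron handling genes 8 lay above 0, with a median of 0.01.

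By the smallest p among genes measured on all 6 arrays whose groups did not overlap, 15 genes were taken in each direction. The higher ones differed by 0.37 to 2.01, with adjusted p of limma from 0.0319 to 0.313. Beside ANGPTL4, FBXL5, TBC1D2 and ESRP2 they were APOL6, AQP3, TPM4, SH3RF3-AS1, IL4R, PRR7, ZGPAT, LRFN4, THUMPD3, ATF7IP and PPP1R35. AQP3, a water and glycerol channel of epithelia, stood at -3.16, -2.94 and -3.57 in air and at -2.39, -2.11 and -2.42 in pollen, and its other probe differed by 1.21. APOL6, an apolipoprotein L induced by interferon, stood at 0.77, 1.09 and -0.32 in air and at 1.67, 1.47 and 1.38 in pollen. TPM4, a tropomyosin of the actin cytoskeleton, stood at 2.33, 2.38 and 1.43 in air and at 2.66, 2.88 and 2.63 in pollen. In APOL6 and TPM4 air replicate 3 stood well below the other air arrays. Their other probes differed less, by 0.09 and 0.16 for APOL6 and by 0.18 for TPM4. PRR7, LRFN4, ZGPAT, THUMPD3, ATF7IP and PPP1R35 differed by 0.37 to 0.47, and their differences at 2h25 min and 24 h ran from -0.06 to 0.08.

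The 15 genes on the lower side differed by -0.77 to -0.31, with adjusted p from 0.246 to 0.429, so none passed the test. GNA11, a G protein subunit that couples receptors to phospholipase C, stood at 0.33, 0.19 and 0.45 in air and at 0.06, -0.23 and -0.37 in pollen. IDH3A, a catalytic subunit of the mitochondrial isocitrate dehydrogenase, stood at 0.63, 0.50 and 0.62 in air and at 0.43, -0.20 and 0.13 in pollen. KIF20B, a kinesin of cytokinesis, stood at -0.83, -0.94 and -0.92 in air and at -1.18, -1.62 and -1.28 in pollen. The pollen arrays of these genes spread more than the air arrays, but lay below them throughout. The others were LDLRAD3 (-0.61), KDM1B (-0.56), DCAF10 (-0.49), STOX1 (-0.44), KIFBP (-0.39), SLC71A2 (-0.39), ZNF654 (-0.39), WDR26 (-0.36), CCDC117 (-0.36), INIP (-0.35) and TFDP1 (-0.31), with TFRC at the lower end. KDM1B is a histone demethylase, DCAF10 a substrate receptor of CUL4 ubiquitin ligases and TFDP1 the partner of the E2F factors. DCAF10 has a further probe that differed by 0.25, the opposite way.

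**Figure D3:**
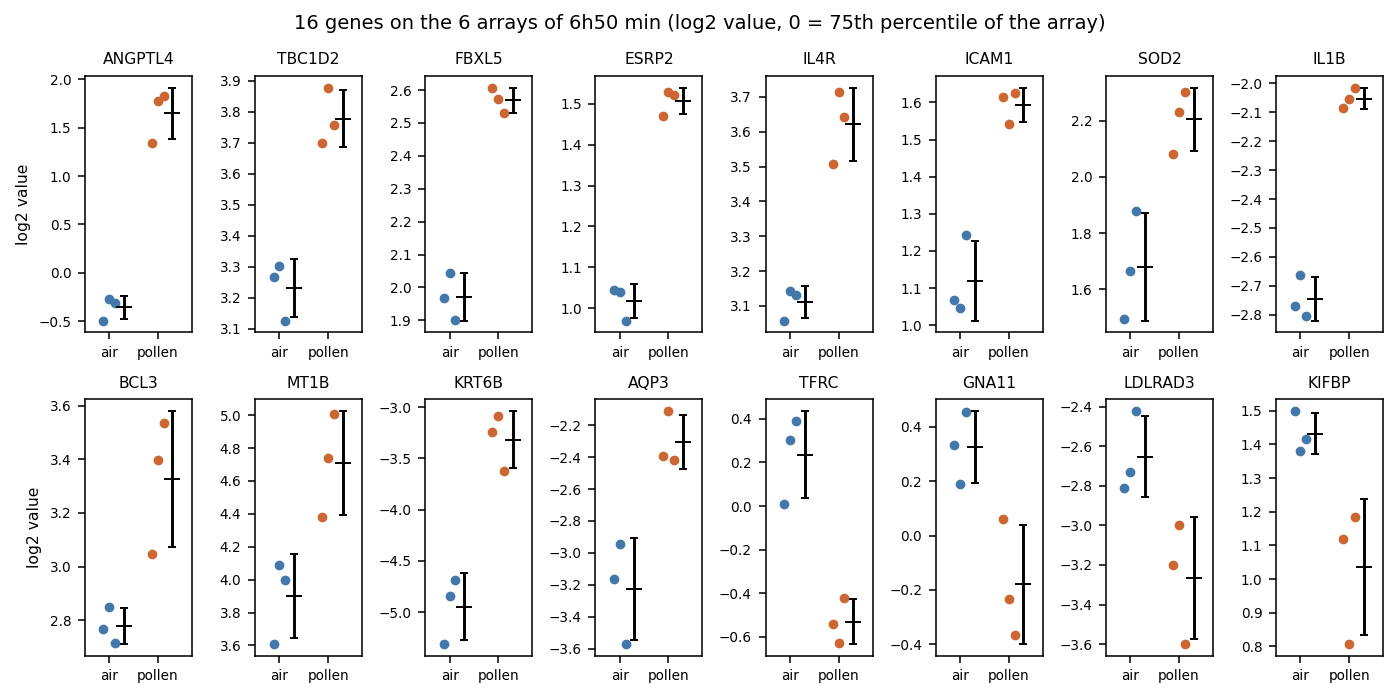
Scaled log2 level on each of the 6 arrays of 6h50 min for genes described in the text, with 1 point per array and the mean and SD of each group beside them, each panel on its own scale. In the first 12 panels pollen lies above air, by 2.01 in ANGPTL4, and in TFRC, GNA11, LDLRAD3 and KIFBP it lies below.

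The remaining genes that the study names for this time did not pass the test here. IL4R, a receptor chain for IL4 and IL13, stood at 3.06, 3.14 and 3.13 in air and at 3.51, 3.71 and 3.64 in pollen, a difference of 0.51 (SE 0.11, adjusted p of limma 0.246). Its 2 other probes differed by -0.29 and 0.12. SOD2, the manganese superoxide dismutase of mitochondria, stood at 1.50, 1.67 and 1.88 in air and at 2.08, 2.23 and 2.30 in pollen, a difference of 0.52 (SE 0.16, adjusted p 0.557). PPARD, the PPAR receptor delta, stood at 1.42, 1.64 and 1.71 in air and at 1.93, 1.92 and 2.03 in pollen, a difference of 0.37 (SE 0.14, adjusted p 0.75). In IL4R, SOD2 and PPARD all pollen arrays lay above all air arrays. IL24, a cytokine of the IL10 family, was above background on 0 of 3 air arrays and 2 of 3 pollen arrays. Set against the lowest signal above background it was 1.40-fold higher (measured difference 1.89, SE 0.43, adjusted p of limma 0.246). This fold is no lower bound, and over the settings the difference of IL24 ran from 0.28 to 2.15. CDK1, the kinase that drives entry into mitosis, differed by -0.08, SLC2A6 by -0.16 and FOXP1 by -0.0020, and their groups overlapped. Together the 8 tested genes had a median of 0.42, with 5 higher at an unadjusted p under 0.05. The study chose them on these samples, so they are no independent evidence of a direction. By qRT-PCR on RNA of the array samples, the study also reports ICAM1, IL24, IL4R and FOXP1 as higher with pollen at this time.

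The alarmins IL33 and TSLP did not pass the test. IL33 differed by 0.27 (SE 0.57) and was above background on 1 of 6 arrays. TSLP, above background on all 6, stood at -5.92, -5.68 and -6.29 in air and at -5.76, -5.67 and -5.98 in pollen. IL25 was too dim to be tested. With 3 arrays per group, neither a difference nor its absence is shown for IL33 and TSLP.

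NF-kB targets lay above 0 as a list. This list and those below were written with earlier results of these data known. Their counts and medians are thus a description and no independent evidence. All 40 members could be tested, 34 were above 0 against 52.4% of all genes, and the median was 0.29 against 0.01. At an unadjusted p under 0.05, 10 were higher (25%, against 3.75% of all genes) and 0 lower, and 22 had all pollen arrays above all air arrays (against 6.75%), while 0 passed the adjusted test. The median of the members, each centred on its mean over the 6 arrays, was -0.19, -0.09 and -0.19 on the air arrays and 0.15, 0.19 and 0.16 on the pollen arrays. The groups did not overlap in this score. ICAM1, the adhesion molecule that leukocytes and rhinoviruses bind, stood at 1.07, 1.05 and 1.24 in air and at 1.62, 1.54 and 1.62 in pollen, a difference of 0.47 (SE 0.13, adjusted p 0.429). BCL3, a nuclear IkB protein, stood at 2.77, 2.85 and 2.72 in air and at 3.05, 3.40 and 3.54 in pollen. IL1B, a proinflammatory cytokine, stood at -2.77, -2.66 and -2.81 in air and at -2.09, -2.06 and -2.02 in pollen, a difference of 0.69 (SE 0.23, adjusted p 0.611). In ICAM1, BCL3 and IL1B each pollen array exceeded each air array. TNIP2, which restrains NF-kB signalling, differed by 0.61, IER3, an early stress gene, by 0.54 and IL1A by 0.70, with adjusted p of limma from 0.429 to 0.831 and without overlap. Members of the list also stand in the cytokine list.

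The promoters of ICAM1 and BCL3 are shown because their genes lay among the 10 NF-kB targets with a small unadjusted p and carry a match to a NF-kB-like word. The sequences are the 250 bases before the start of the gene in RefSeq on GRCh38.p14, plus strand, ICAM1 at chr19:10270870-10271119 and BCL3 at chr19:44748458-44748707, with the match to GGNNNTTCC or its reverse complement in capitals.
ICAM1: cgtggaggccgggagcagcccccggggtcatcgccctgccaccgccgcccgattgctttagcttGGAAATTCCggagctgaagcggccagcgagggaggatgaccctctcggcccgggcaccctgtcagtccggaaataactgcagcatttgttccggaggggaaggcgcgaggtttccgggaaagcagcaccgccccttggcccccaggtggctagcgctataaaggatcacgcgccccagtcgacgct
BCL3: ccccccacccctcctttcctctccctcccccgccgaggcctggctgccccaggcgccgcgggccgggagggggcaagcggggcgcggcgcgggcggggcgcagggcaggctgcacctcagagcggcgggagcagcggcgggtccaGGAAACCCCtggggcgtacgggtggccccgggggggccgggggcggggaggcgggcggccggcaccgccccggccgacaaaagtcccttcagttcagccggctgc
The match begins 186 bases before the start in ICAM1 and 105 bases before it in BCL3. A match was found in 17.1% of 27305 promoters and in 20 of 35 NF-kB targets with a promoter (57.1%). Among the NF-kB targets higher at an unadjusted p it was in 5 of 9. The word was chosen with the sequences in view, and a match is a description of letters, not a binding site.

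Cytokines and chemokines had 26 of 36 members bright enough to test and outside the area. Of these 24 were above 0, with a median of 0.28, and 4 were higher at an unadjusted p under 0.05, namely CXCL6, IL1A, IL1B and IL24, with 0 lower. CXCL8, the chemokine that draws neutrophils, stood at -4.79, -4.81 and -5.47 in air and at -3.64, -4.04 and -3.73 in pollen, a difference of 1.22 (SE 0.65, adjusted p of limma 0.887). CCL20, which draws dendritic cells and Th17 cells, differed by 0.88 (SE 0.47, adjusted p 0.884) and CXCL1 by 0.70 (SE 0.35, adjusted p 0.86). IL6 differed by 0.42 (SE 0.49). CXCL8, CCL20, CXCL1 and IL6 had no overlap between pollen and air at 6h50 min, but their SE, estimated over all times, was large.

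Of the cytokine receptors and decoys 30 could be tested, with a median of 0.09. At an unadjusted p 4 were higher and 0 lower, IL4R, IL6ST (0.33), OSMR (0.31) and TNFRSF21 (0.33). IL6ST, also called gp130, and OSMR are chains of the receptors for the IL6 family. Of 23 SOCS and JAK-STAT genes 3 were higher at that p and 0 lower, with a median of 0.08. SOCS3, the feedback inhibitor of gp130 signalling, stood at -1.76, -1.32 and -1.44 in air and at -1.10, -1.09 and -1.03 in pollen, a difference of 0.43 (SE 0.14, adjusted p of limma 0.614). PIM3, a kinase gene downstream of the STATs, differed by 0.32. IL6ST, OSMR and SOCS3 all act in signalling of the IL6 family. The median of the receptor list was -0.01 in the authors' table of log2 values.

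Of 31 pattern recognition receptors and adaptors 4 passed an unadjusted p as higher and 0 as lower, with a median of 0.05 that was -0.03 in the authors' table. They were NLRC5 (0.48), which activates MHC class I genes, TRIM25 (0.31), which ubiquitinates RIG-I, the Toll-like receptor adaptor MYD88 (0.25) and the kinase IRAK1 (0.25). Of 41 interferon-stimulated genes 5 were higher (12.2%, against 3.75% of all genes) and 1 lower (2.44%, against 1.99%), with a median of 0.07 that was -0.0033 in the authors' table. PARP14 stood at -0.25, -0.12 and -0.03 in air and at 0.12, 0.30 and 0.19 in pollen, and PARP9, a partner of the ubiquitin ligase DTX3L, differed by 0.35. IFIT3 differed by 0.37, and OAS1 was also among the higher members. HERC5, the ligase for the ubiquitin-like protein ISG15, differed by -0.37 and was the lower one. None of these genes passed the adjusted test.

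Metallothioneins and zinc genes had a median of 0.36 over 12 of 15 members, of which 10 were above 0. The median ran from 0.09, in the authors' table of log2 values, to 0.43 over the settings. Metallothioneins bind zinc, copper and cadmium, and their genes follow the metal-sensing factor MTF1. At an unadjusted p 4 were higher and 0 lower. MT1B stood between 3.61 and 4.09 in air and at 4.38, 4.74 and 5.01 in pollen, a difference of 0.81 (SE 0.29, adjusted p of limma 0.659). MT1L differed by 0.75 (SE 0.30), MT1E by 0.64 (SE 0.28) and MT1A by 0.64 (SE 0.26). In each of these 4 the lowest pollen array lay above the highest air array, and air replicate 1 and pollen replicate 1 were the lowest of their groups. The metallothionein genes are near copies of each other, so that probes may share RNA and the 4 cannot be counted as independent. MT1X differed by 0.45, MT1M by 0.31 and MT1F by 0.20, and MT2A had no probe outside the dim area. The promoter of MT1B is shown because it holds 3 matches to TGCACNC or its reverse complement, the core letters of a metal response element, in capitals. It covers chr16:56651636-56651885 on the plus strand of GRCh38.p14 (RefSeq).
MT1B: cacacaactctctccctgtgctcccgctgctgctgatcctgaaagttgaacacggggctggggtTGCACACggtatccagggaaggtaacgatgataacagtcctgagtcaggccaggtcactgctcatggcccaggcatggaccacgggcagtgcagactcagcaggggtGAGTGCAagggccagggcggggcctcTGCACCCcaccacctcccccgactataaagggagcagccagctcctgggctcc
A match was found in 9.73% of 27305 promoters and in 6 of 8 promoters of the list.

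Among 20 PPAR and lipid handling genes 5 passed an unadjusted p on the higher side and 0 on the lower, with a median of 0.09, and ANGPTL4 was the only one that passed the adjusted test. CPT1A, which brings long-chain fatty acids into mitochondria, stood at 0.24, 0.18 and 0.16 in air and at 0.54, 0.70 and 0.47 in pollen, a difference of 0.37 (SE 0.13, adjusted p of limma 0.635). PLIN2, a coat protein of lipid droplets, stood at 1.27, 1.06 and 1.08 in air and at 1.59, 1.35 and 1.54 in pollen, a difference of 0.36 (SE 0.13, adjusted p 0.71), and its other probe differed by 1.19. PPARD and ACADVL (0.24), an enzyme of fatty acid oxidation, were the others. CPT1A and PLIN2 differed by 0.03 and 0.06 at 2h25 min, when ANGPTL4 already differed by 1.98. PDK4, another PPAR target, differed by 0.32 (SE 0.24) without overlap.

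Of 16 VEGF and angiogenesis genes 4 lay higher and 1 lower by that p, with a median of 0.16. Over the settings this median ran from 0.09 to 0.23. The higher ones include ANGPTL4 again, and NRP1, a VEGF co-receptor, which differed by 0.38 (SE 0.15). Of 16 keratins 2 were higher and 0 lower, with a median of 0.17. KRT6B stood at -5.31, -4.84 and -4.68 in air and at -3.24, -3.08 and -3.62 in pollen, a difference of 1.63 (SE 0.41, adjusted p of limma 0.351). KRT6A stood at 0.79, 1.21 and 1.08 in air and at 1.57, 1.94 and 1.56 in pollen, a difference of 0.66 (SE 0.29, adjusted p 0.792). Both are keratins of activated and wounded epithelium, are near copies of each other, and differed at 24 h by 0.93 and 0.57.

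The study's text also speaks of SERPIN, caspase and CEP genes. Of 35 SERPIN genes 18 could be tested, with a median of 0.17, and 3 passed an unadjusted p, all higher. SERPINB3 and SERPINB4, neighbouring protease inhibitors of squamous epithelium named here after their values were seen, differed by 2.34 (SE 0.54, adjusted p of limma 0.246) and 1.42 (SE 0.43, adjusted p 0.522). SERPINB3 was above background on 1 of 3 air arrays, where it stood at -8.47, -6.21 and -5.67, and on all pollen arrays at -4.71, -4.52 and -4.11. Air replicate 1 stood far below the other air arrays, and without 1 array the difference ran from 1.49, when air replicate 1 was left out, to 2.89. Over all settings it ran from 0.61 to 2.89. With 2 of 3 air arrays not above background, the size of the difference is uncertain. The pair shares most of its sequence, so the probes may share RNA. Of 9 caspases 1 was higher, CASP4 (0.24), which senses cytosolic lipopolysaccharide, and 3 were above 0, with a median of -0.04. Of 35 centrosomal CEP genes 1 was higher, CEP170B (0.26), and 1 lower, CEP97 (-0.26), with a median of -0.02. Each is 2.86% of the list, near the shares of all genes. The sign of the caspase median held in 22 and that of the CEP median in 25 of 26 alternative settings.

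Ribosome biogenesis genes had small positive differences, with 48 of 53 members above 0 and a median of 0.14 that ran from 0.047 to 0.17 over the settings, the lowest in the authors' table of log2 values. At an unadjusted p 7 were higher and 0 lower. They were PPAN (0.54), GNL3 (0.33), IMP3 (0.30), WDR43 (0.21), RRS1, MYBBP1A and DDX21, which process pre-ribosomal RNA or assemble the subunits. GNL3 stood at 3.29, 3.12 and 3.30 in air and at 3.50, 3.51 and 3.68 in pollen. Mitosis genes lay on the other side, with 11 of 53 above 0 and a median of -0.07. At an unadjusted p 4 were lower, TPX2 (-0.24), KIF20B, ECT2 (-0.28) and KIF11, and CDCA5 was higher. TPX2, which nucleates spindle microtubules, stood at 2.35, 2.41 and 2.55 in air and at 2.09, 2.23 and 2.28 in pollen. In neither list did a member pass the adjusted test. Of 41 DNA replication and G1/S genes 3 were higher, CHAF1A (0.48), LIG1 (0.30) and CLSPN (0.25), and 1 lower, MCM10 (-0.31), with a median of -0.03. These are 7.32% and 2.44% of the list, against 3.75% and 1.99% of all genes.

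Genes of mTOR, insulin and adiponectin signalling had a median of -0.02 over 30 members, with 2 genes higher and 3 lower by an unadjusted p. The lower ones were both adiponectin receptors, ADIPOR1 (-0.24) and ADIPOR2 (-0.25), and PDPK1 (-0.33), the kinase that activates AKT. ADIPOR2 stood at 2.39, 2.37 and 2.17 in air and at 2.13, 2.00 and 2.06 in pollen, without overlap (adjusted p of limma 0.611).

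Immediate early genes had a median of -0.01 over 29 members, with 1 higher, IER3 (3.45%, near the 3.75% of all genes), and 0 lower. FOS stood at -2.29, -2.76 and -3.06 in air and at -2.69, -3.04 and -3.54 in pollen, and EGR1 at 3.17, 2.80 and 2.28 in air and at 2.84, 2.54 and 2.18 in pollen. In FOS and EGR1 the groups overlapped. The sign of the medians of immediate early and of MAP kinase feedback genes held in 21 of 26 settings each. MAP kinase feedback genes had a median of 0.01 over 21 members, with 3 higher, among them PHLDA1 (0.55), and 0 lower. The genes that the study names for mock handling had a median of 0.23 over 14 members, with 13 above 0 and 1 called, ANGPTL4. The remaining 18 lists, from cholesterol synthesis and glycolysis to NRF2 targets, heat shock chaperones and p53 targets, had medians from -0.01 to 0.20 and 0 members called. Over the 40 lists 12 had a median above 0.1 and 0 had one under -0.1.

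**Figure D4:**
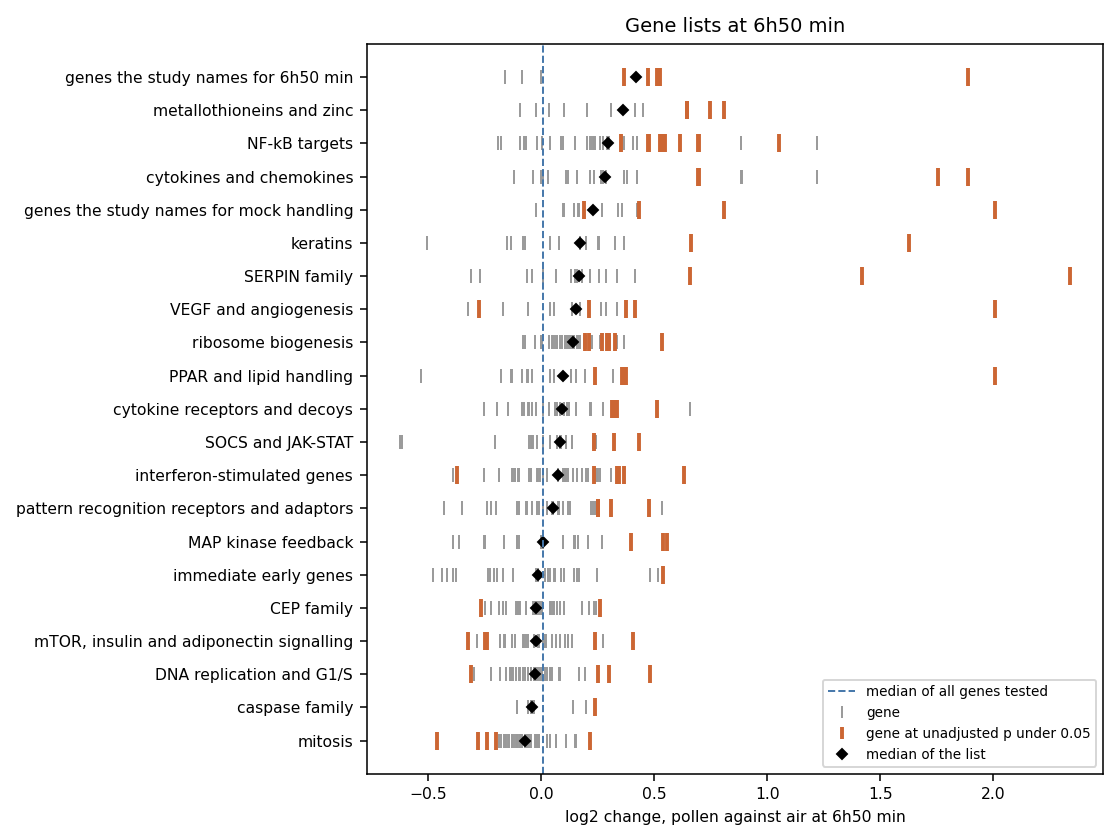
Difference between pollen and air at 6h50 min (log2) for each tested member of 21 gene lists as a tick, in orange at an unadjusted p under 0.05, with the median of the list as a diamond and that of all genes as a dashed line. NF-kB targets, cytokines and chemokines, and metallothioneins lie to the right of 0, and mitosis genes slightly to the left.

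The other times were measured on other slides with their own mock arrays, so that time and slide cannot be told apart. At 2h25 min 23 probes passed the call rule, all higher in pollen (0.0755%), and at 24 h 0 passed (0%). Of these 23, 19 were above 0 at 6h50 min, against 52.4% of all genes. All pollen arrays lay above all air arrays in 12 of the 23 (against 6.75% of all genes) and below them in 2 (against 4.55%). An unadjusted p under 0.05 was reached by 7, against 3.98% of all probes in that direction, namely ANGPTL4, IL1B, SOCS3, IER3, SH3RF3-AS1, MAP2K3 and PIM3, and ANGPTL4 passed the adjusted test at both times. The difference was smaller at 6h50 min in 22 of the 23. Their median was 0.95 at 2h25 min, 0.20 at 6h50 min and -0.12 at 24 h. The fall of this median is partly set by the choice of the probes at 2h25 min.

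When the effect of pollen at 6h50 min was tested against that at 2h25 min, 1 probe passed (0.00328%), with 1495 at an unadjusted p under 0.05 (4.91%). It was CCN2, a matricellular growth factor and a target of the YAP and TEAD factors, at chr6:132270130-132270189 (hg19). CCN2 rose by 1.44 at 2h25 min (adjusted p of limma 5.37e-08). At 6h50 min it stood at -0.91, -0.76 and -0.85 in air and at -0.81, -0.66 and -0.61 in pollen, a difference of 0.14 (SE 0.12) with overlapping groups. The effect was thus lower by 1.30 (difference -1.30, SE 0.16, adjusted p 0.000614). With the percentile over all probes of each array the difference was -1.35 (SE 0.27) and did not pass the test (adjusted p of limma 1.00). No other alternative setting lost this call. For ANGPTL4 the same test gave 0.03, with differences of 1.98 and 2.01 at these times, and 0.67 at 24 h. Between 6h50 min and 24 h the effect of pollen differed in 0 probes by limma at an adjusted p under 0.05 (smallest 0.418), with 1212 at an unadjusted p (3.98%).

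By list, immediate early genes had a median of 0.47 at 55 min, 0.65 at 2h25 min, -0.01 at 6h50 min and -0.19 at 24 h. MAP kinase feedback genes had medians of 0.17, 0.34, 0.01 and -0.17 at the same times. NF-kB targets went from 0.19 and 0.41 to 0.29 and 0.07, and cytokines and chemokines from 0.26 and 0.75 to 0.28 and 0.12. Metallothioneins had their highest median at 6h50 min, with 0.0023 at 55 min, 0.14 at 2h25 min and 0.16 at 24 h. Ribosome biogenesis genes stood at 0.01, 0.0011, 0.14 and -0.07. The differences between times were not tested for lists.

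**Figure D5:**
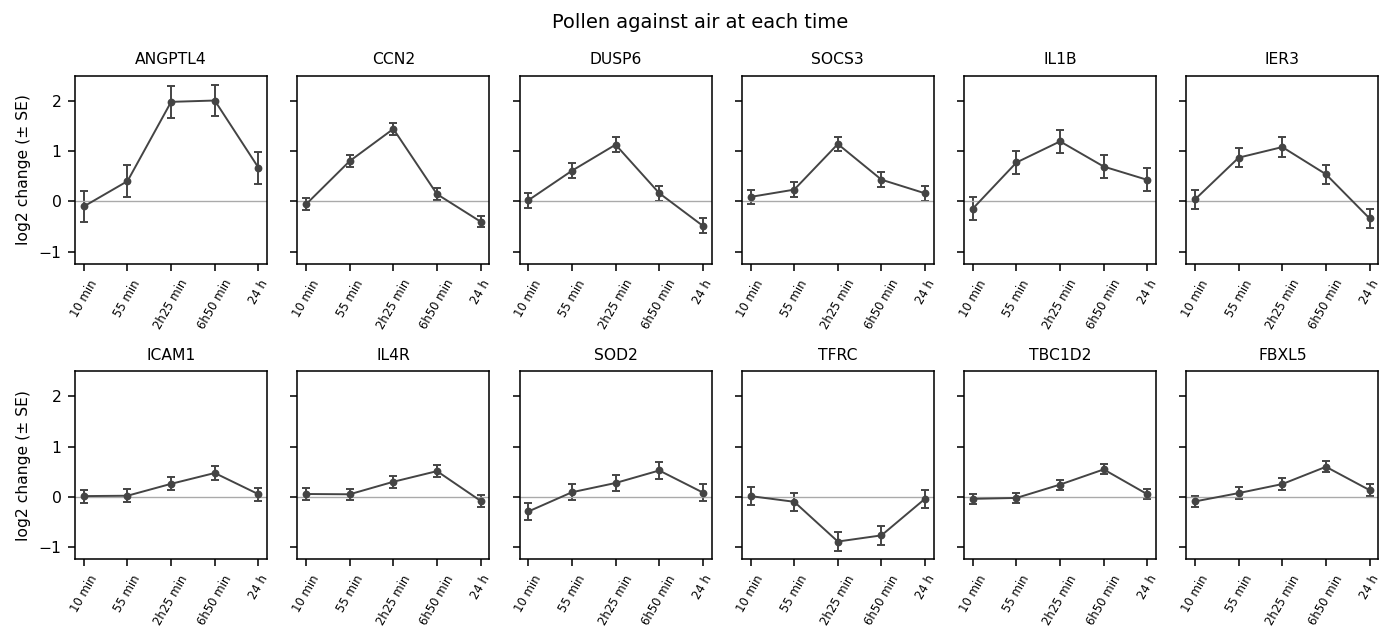
Difference between pollen and air (log2) at the 5 times for 12 genes, with bars of 1 SE from the fit of all arrays and times spaced evenly. CCN2 and DUSP6 are near 0 at 6h50 min, ANGPTL4 stays near its value at 2h25 min, and ICAM1, IL4R, SOD2, TBC1D2 and FBXL5 are highest at 6h50 min.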

How the data were processed

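RNA of BEAS-2B cells was labelled with Cy3 and hybridised to Agilent arrays. Spot intensities were deposited for each array as Agilent Feature Extraction 11.0.1.1 writes them, with background subtraction and detrending but no scaling across arrays. A table of log2 values, which limma preprocessed per the methods, was deposited too. It was used as an alternative, and all 6 arrays of 6h50 min matched the column of their own name best.

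In R 4.3.3 with version 1.17.8 of data.table, replicate spots were averaged without outlier spots, put on the log2 scale and scaled by the 75th percentile over 33873 probes on both array designs, since 1 of 30 arrays is of another design. The spots of the dim area (local median under -0.25 on air replicate 1 or 2, in a window of 15 rows and columns, against 23 arrays of the other times) were left out. A probe was tested if at least 1 of the 10 groups had it well above background on its 3 arrays. The model had 10 group means on 30 arrays and was fitted with limma 3.58.1 (20 residual and 5.92 prior degrees of freedom, trended variance), with Benjamini-Hochberg adjustment. The fit was tested on simulated data. All adjusted p-values are from limma, and an exact permutation test of 3 against 3 cannot give a p under 0.1.

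A gene is represented by its brightest tested probe. Gene names came from the reference by accession for 34892 probes and by gene name for 4628, while 18681 probes have only the name given in the file. Probe positions are those of the files, on hg19. Where a group was above background on none of its arrays, a fold was set against the lowest signal above background on each array. It is a bound only if the other group was above background on all its arrays. Named genes are those the study names for 6h50 min, IL33, IL25 and TSLP, the 10 largest called in each direction, the 15 with the smallest p in each direction and up to 4 per list. Other genes beside a small count, and the chemokines, ferritins, IREB2, PDK4, FOS and EGR1, were chosen after their values were seen. The members and lists were chosen with earlier results of these data known. Alternatives for scaling, background, filter, area, variance, block and replicates were run, 3 of them (the area out with local subtraction elsewhere, no dim air arrays, no array of another design) chosen after seeing the data. Some genes are not reported here. The precision rests on 3 arrays per group.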

Additional observations from a re-analysis of the deposited data

Results flagged for a closer look

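The effect of pollen on CCN2 differed between times by limma's interaction contrast, with 1.44 at 2h25 min and 0.14 at 6h50 min, a difference of -1.2981 (SE 0.16, adjusted p 0.000614). With the percentile over all probes of each array it was -1.35 (SE 0.27) and did not pass the test (adjusted p of limma 1.00), the only alternative setting that lost the call. The 3 pollen and 3 air arrays overlapped at 6h50 min. The arrays of 6h50 min lie on 1 slide that holds no other time, so in this comparison time and slide cannot be told apart. No sample outlier was tested, since each group holds 3 arrays.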

How the results depend on the processing

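The count of 2 probes called at 6h50 min was 4 under quantile normalization, 1 with the percentile over all probes of an array, 9 with normexp and quantile normalization (8 higher, 1 lower), 1 without a filter on dim probes, 1 with probes above background on all 6 arrays, 62 with the dim area kept, 9 with a limit of -0.5 for the area, 7 with local medians subtracted, 4 without the variance trend, 15 with array weights, 1 with the 6 arrays alone, 9 with the slide as a block and 23 in the authors' table of log2 values (16 higher, 7 lower). Leaving out 1 array gave 0 to 2. Settings added after seeing the data gave 6 with the area out and local medians subtracted elsewhere, 102 without air replicates 1 and 2, where the lone air array is assumed to vary like the other groups, and 8 without the array of another design. The probes whose effect differed from 2h25 min, 1 in the report, numbered 0 with the percentile over all probes, 2 with the arrays of the compared times, and 50 without both dim air arrays. Against 24 h, 0 in the report, they numbered 1 with array weights and 50 without both dim air arrays. The study describes a mock in the same run as exposed cells, but the labels do not say that a replicate number marks a run. Correlations of deviations were 0.08, 0.21 and 0.0011 for same-numbered arrays and ran from -0.17 to 0.10 for differently numbered ones. Not every same-numbered pair deviated together, so the numbers were not taken as pairs. These few correlations cannot decide whether they are. With the replicate block 72 probes were called (66 higher, 6 lower), and 11 differed from 2h25 min. Normexp with the replicate block gave 263, 18 and 10. ANGPTL4 kept its direction in all settings and lost its call only where arrays of 6h50 min were left out. Some values near 0 turned. IL33 was -0.10 under quantile normalization, -0.23 to 0.83 with 1 array left out and -0.16 without both dim air arrays. FOXP1 was -0.095 to 0.066 with 1 array left out and 0.18 without both dim air arrays. SLC2A6 was 0.045 with normexp, also with the block, and 0.23 without both dim air arrays, where CDK1 was 0.039. CCN2 at 6h50 min was -0.056 with normexp, also with the block, and -0.10 in the authors' table. TSLP was -0.0022 to 0.30 with 1 array left out. In the authors' table the medians of cytokine receptors, pattern recognition and interferon-stimulated genes were -0.01, -0.03 and -0.0033. The caspase median was -0.074 to 0.030 with 1 array left out, 0.070 without both dim air arrays and 0.039 with the mean over all probes of a gene. The median of mTOR genes was 0.033 with normexp, also with the block. Without both dim air arrays the DNA replication median was 0.075 and that of immediate early genes 0.14. The NF-kB median ran from 0.21 to 0.35 and the metallothionein median from 0.09 to 0.43. The cause of these moves was not tested.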
